A study of Homo sapiens with 24 samples.

Results

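RNA of vehicle-treated HSJD-DIPG-007 cells at day 5 was compared with RNA of the same cells at days 1 to 3. HSJD-DIPG-007 is an established line of diffuse midline glioma (DMG) cells, and its labels give the genotype as H3F3A K27M, ACVR1 R206H and PIK3CA MIS, which every library of the study shares. The cells grew as spheroids in serum-free medium with EGF, FGF, PDGF-AA and PDGF-BB. The later group was the 3 vehicle libraries of day 5, and the early group was the vehicle libraries of days 1, 2 and 3, 1 of each day. These 6 of the 24 libraries were chosen by their labels alone, so that later spheroid culture could be set against early culture without the step from day 0 to day 1. The cells received vehicle and no drug. In a further comparison, the matching 6 libraries of cells treated with LLY-283, a small molecule inhibitor of the arginine methyltransferase PRMT5, were used beside them. Day 5 was the day on which the medium was replaced. The libraries of a day are described as technical repeats, so p-values measure only the spread between these samples, and 1 cell line is represented.

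In spheroid culture, cells divide and the clusters grow, so that contact with neighbours, nutrient supply and the signals the cells secrete can all change with time. DMG cells resemble precursors of the oligodendrocyte lineage, which divide in response to PDGF through the receptor PDGFRA. Lipid synthesis is controlled in most cells by the SREBP transcription factors, and p53 raises a set of genes that slow the cell cycle, repair DNA or promote cell death.

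The 6 libraries held between 13835205 and 23190369 counts, with 13835205 to 16691287 at day 5 and 16366670 to 23190369 at days 1 to 3. Mitochondrial transcripts made up 2.73 to 3.26% of counts. Of 22 oligodendrocyte precursor markers, 15 exceeded 1 CPM (counts scaled to a common library size) in every library, and OLIG2, PDGFRA and CSPG4 were among them. The defining markers SOX10, GPR17, PCDH15 and TNR stayed below 1 CPM, and CA10 was at 0. None of 15 microglia markers reached 1 CPM in every library. Several fibroblast transcripts, though not THY1 or PRRX1, were higher in vehicle day 5 replicate 3 than in the others. Fibronectin FN1 lay at 59.1 CPM there and at 2.26 to 3.17 CPM in the other libraries, and COL1A2 at 36.1 CPM against at most 1.02. COL1A1 lay at 52.7 CPM there against at most 9.86, TGFBI at 12.6 against at most 0.359 and COL3A1 at 9.18 against at most 0.193. The summed fibroblast markers were 2680 CPM in that library and 2230 to 2480 CPM in the rest. That sum includes abundant transcripts such as COL6A1 and S100A4, which were not highest there. The number in the column name ran from 1 to 12 for days 5, 7 and 10 and from 37 to 48 for days 0 to 3, so any batch it marks and the stage of culture cannot be told apart.

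Of 16363 genes tested, 2539 (15.5%) passed an adjusted p of 0.05, with 1465 higher at day 5 (8.95%) and 1074 lower (6.56%). Most of the changes were small. The median absolute log2 change of called genes was 0.274, 2065 of them changed by less than 0.5, and 113 changed more than the equivalent of 1 on the log2 scale, 38 higher and 75 lower. The median log2 change of all genes tested was -0.0144. Levels of day 5 and of days 1 to 3 did not overlap for 5528 genes, or 33.8% of those tested. The share of called genes that were higher was 57.7% (95% exact binomial interval 55.75 to 59.63, which treats genes as independent), but with scaling by library totals alone it was 44.31%, so the balance between increases and decreases depended on the scaling. The count of called genes was 1386 without the day 2 library and 1453, 1509 and 1471 without day 5 replicates 1, 2 and 3. In a bulk sample, fewer cells of a type and less RNA per cell cannot be told apart.

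The 10 largest increases were described gene by gene. RANBP3L (ENSG00000164188, chr5:36246913-36302114 on GRCh38), a nuclear export factor for SMAD proteins, lay at 3.18, 2.48 and 3.42 CPM at days 1, 2 and 3 and at 9.91, 12.6 and 13.9 CPM in the day 5 replicates. Every day 5 library was above every early library, and the log2 change was 2.00 ± 0.16 (SE, adjusted p = 6.23e-07). KCNJ10 (ENSG00000177807, chr1:159998651-160070160), the inward rectifier potassium channel of glial cells, read 6.40, 5.10 and 7.88 CPM early and 20.3, 23.17 and 22.8 CPM at day 5, a log2 change of 1.78 ± 0.13 (adjusted p = 3.59e-07). Its day 0 level was lower still, between 1.19 and 1.81 CPM. A voltage-gated potassium channel subunit, KCNF1, went from 1.78, 1.86 and 2.08 CPM to 5.48, 4.97 and 5.504 CPM (log2 1.48 ± 0.19, adjusted p = 5.27e-05).

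**Figure D1:**
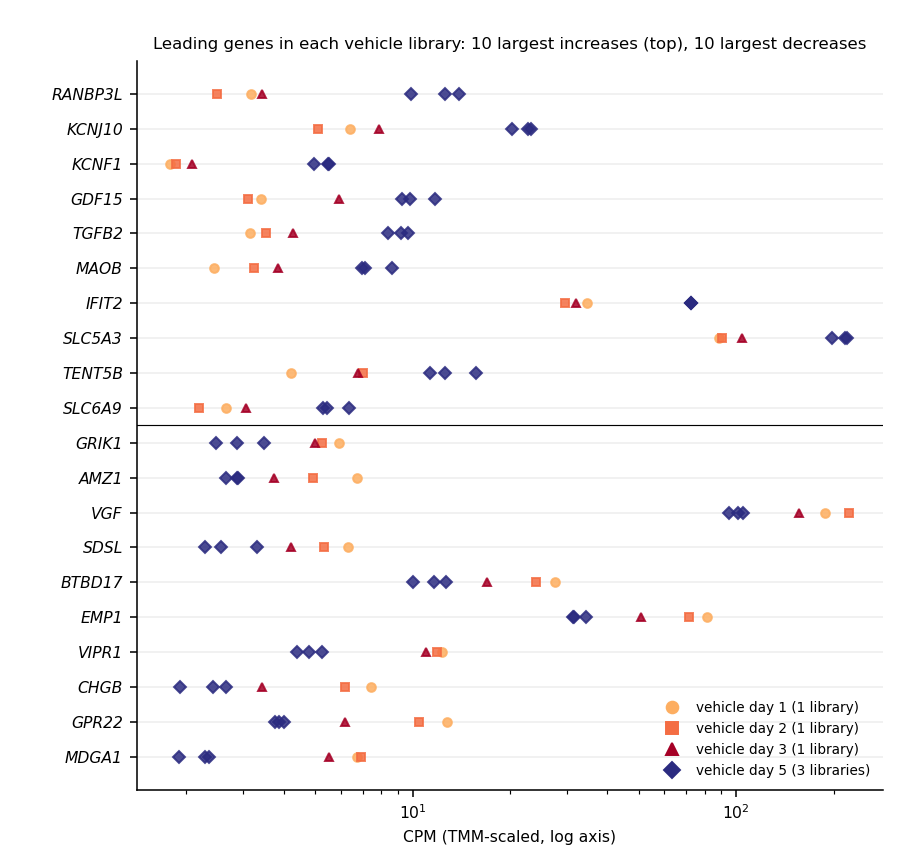
CPM on a log axis in each of the 6 vehicle libraries for the 10 genes with the largest increase and the 10 with the largest decrease at day 5, with 1 symbol for each library. The blue diamonds of day 5 stand apart from the early symbols in all 20 genes, which the choice of genes required. In every gene drawn but TENT5B, the day 3 symbol lies between day 2 and day 5.

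Among secreted factors, the stress cytokine GDF15 had 3.39, 3.10 and 5.92 CPM early and 9.85, 9.29 and 11.7 CPM at day 5 (log2 1.34 ± 0.21, adjusted p = 0.0019). TGFB2, a ligand of the TGF-beta receptors, had 3.13, 3.53 and 4.28 CPM early and 9.23, 8.38 and 9.69 CPM later (log2 1.33 ± 0.15, adjusted p = 2.12e-05). The groups were separate for both ligands, and TGFB2 overlaps TGFB2-OT1 on its own strand. Transporters were also among them. The inositol carrier SLC5A3, which shares sequence with MRPS6, rose from 88.6, 90.2 and 104 CPM to 197, 220.4 and 218 CPM (log2 1.17 ± 0.06, adjusted p = 7.13e-07). SLC6A9, a glycine transporter, had 2.65, 2.19 and 3.05 CPM and then 5.29, 6.35 and 5.43 CPM (log2 1.12 ± 0.18, adjusted p = 0.000487). The other 3 genes of this group were the amine oxidase MAOB (log2 1.27), the nucleotidyltransferase TENT5B (1.14) and the interferon-induced IFIT2 (1.18).

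The 10 largest decreases were described in the same way. MDGA1 (ENSG00000112139, chr6:37630679-37699306), a membrane-anchored adhesion protein, fell from 6.74, 6.91 and 5.498 CPM to 2.28, 1.90 and 2.35 CPM, a log2 change of -1.56 ± 0.18 (adjusted p = 2.14e-05). VIPR1, a receptor for vasoactive intestinal peptide, was at 12.4, 11.9 and 11 CPM early and at 5.23, 4.78 and 4.40 CPM at day 5 (log2 -1.29 ± 0.12, adjusted p = 3.31e-06). The granule proteins CHGB and VGF also fell. CHGB read 7.44, 6.198 and 3.42 CPM and then 2.65, 2.42 and 1.91 CPM (log2 -1.30 ± 0.27, adjusted p = 0.00816). VGF, a secreted neuropeptide precursor, read 188, 223 and 156 CPM and then 101, 95.4 and 105 CPM (log2 -0.92 ± 0.15, adjusted p = 0.0245), after 515 to 545 CPM at day 0.

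GRIK1, a kainate receptor subunit, fell from 5.92, 5.24 and 5.01 CPM to 2.46, 3.47 and 2.86 CPM (log2 -0.89 ± 0.18, adjusted p = 0.00287). For the orphan receptor GPR22 the early libraries differed among themselves, at 12.8, 10.5 and 6.17 CPM, and the day 5 libraries lay at 4.001, 3.86 and 3.74 CPM (log2 -1.36 ± 0.26, adjusted p = 0.0112). EMP1, an epithelial membrane protein, showed the same order, with 81.2, 71.3 and 50.8 CPM before 31.6, 31.3 and 34.4 CPM (log2 -1.08 ± 0.21, adjusted p = 0.0369). The remaining decreases were BTBD17 (log2 -1.01), the serine dehydratase-like SDSL (-0.98) and the metalloprotease AMZ1 (-0.89). GPR22, BTBD17, VGF and EMP1 lost the call when any of the day 5 libraries was left out, BTBD17 and EMP1 also without day 2, and VGF and EMP1 also without day 1. CHGB lost it without replicate 2 or 3 and AMZ1 without replicate 1, whereas MDGA1, VIPR1, GRIK1 and SDSL kept it.

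In each list below, the 2 called members of smallest p were named by rule, and other members were named after their values were seen. Most p53 targets rose. Of 33 targets tested, 18 were called higher and 0 lower, against 8.95% and 6.56% of all genes, and the median log2 change was 0.216 against -0.0144. TNFRSF10B, a death receptor, lay at 81.1, 81.0 and 84.1 CPM at days 1 to 3 and at 109.9, 112 and 112 CPM at day 5 (log2 0.44 ± 0.04, adjusted p = 3.21e-06). CCNG1, which encodes cyclin G1, lay at 44.5, 48.1 and 51.3 CPM and then at 66.2, 64.9 and 69.8 CPM (log2 0.48 ± 0.06, adjusted p = 3.44e-05). Neither gene's groups overlapped. The largest changes in the list were GDF15, described above, and PLK2 (log2 0.93 ± 0.12, adjusted p = 0.000111), a polo-like kinase. Among the others were the apoptosis genes BAX (log2 0.24) and BBC3 (0.34), the sestrins SESN1 (0.45) and SESN2 (0.46), the DNA repair factor DDB2 (0.40) and the p53 antagonists MDM2 (0.19) and PPM1D (0.22).

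CDKN1A, the cell cycle inhibitor p21, was not among the targets that rose. Its levels were 216, 160.0 and 149 CPM early and 162, 165 and 167 CPM at day 5 (log2 -0.09 ± 0.16, adjusted p = 0.767), after 369 to 394 CPM at day 0. TP53I3 (log2 -0.31) and GADD45A (-0.08) were not called either. Several targets had been as high or higher at day 0 than at day 5. TNFRSF10B, for example, lay between 116 and 123 CPM at day 0. The number of targets called higher was 15 to 21 when each library was left out in turn.

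**Figure D2:**
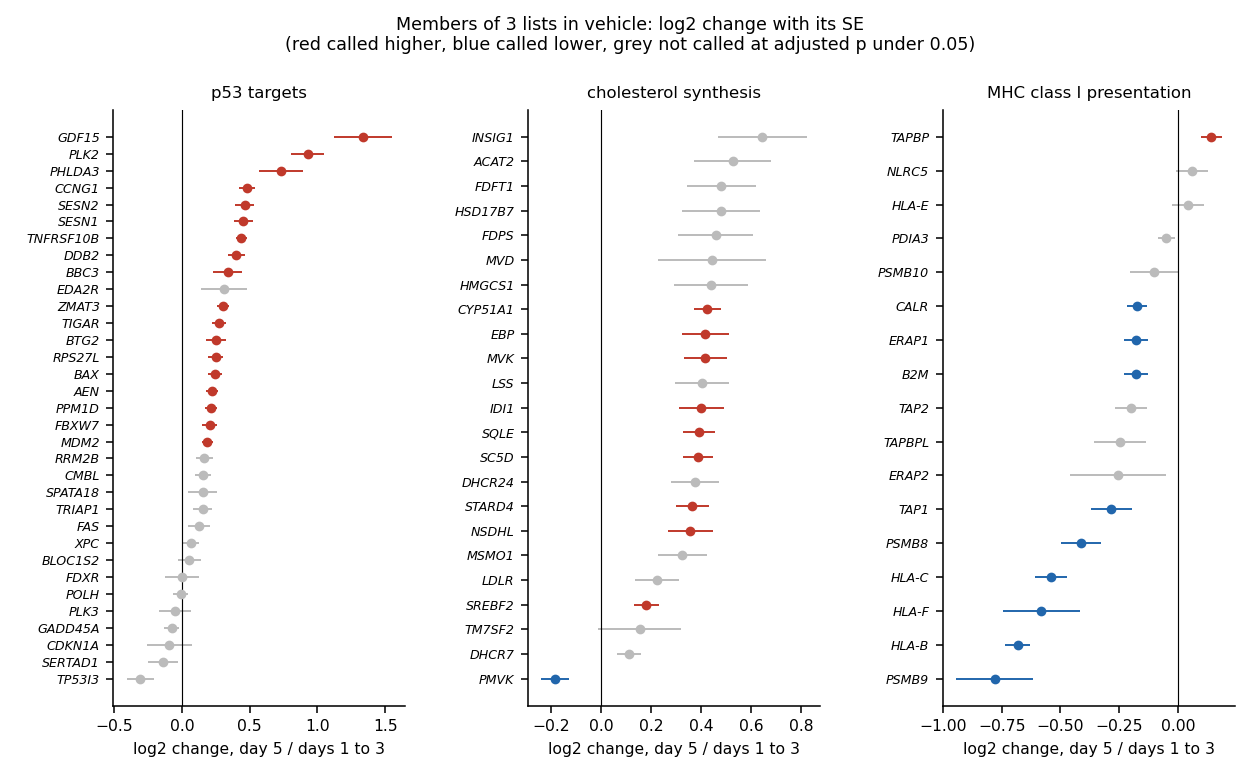
Log2 change at day 5 in vehicle with its SE for tested members of the p53 target, cholesterol synthesis and MHC class I lists, without 1 called member of each of the last 2 lists that is not reported here, with called members in red or blue and the others in grey. The 18 called p53 targets and 9 of the 10 called cholesterol genes drawn lie to the right of 0, and 9 of the 10 called MHC class I genes drawn lie to the left.

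Genes of cholesterol synthesis lay higher at day 5 along the pathway. Of 24 tested, 10 were called higher and 1 lower, 23 had a log2 change above 0, and for 22 the groups did not overlap, with a median of 0.395. Over all genes tested, 8.95% were called higher, 6.56% were called lower and 33.8% had groups that did not overlap. CYP51A1, the lanosterol demethylase, read 211, 234 and 253 CPM at days 1, 2 and 3 and 309, 312 and 317 CPM at day 5 (log2 0.42 ± 0.05, adjusted p = 0.000262). SC5D, which acts near the end of the pathway, read 49.2, 47.6 and 53.8 CPM and then 65.3, 61.9 and 69.9 CPM (log2 0.39 ± 0.06, adjusted p = 0.000298). Day 5 was above each early library for both. The called increases also included MVK (log2 0.42), IDI1 (0.40), SQLE (0.39), EBP (0.42), NSDHL (0.36), the sterol carrier STARD4 (0.36) and the regulator SREBF2 (0.18). PMVK was the exception, with a log2 change of -0.18 ± 0.06 (adjusted p = 0.0354).

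The early libraries of this list differed by day. INSIG1, which holds SREBP proteins in the endoplasmic reticulum, read 98.5, 130.2 and 150.0 CPM at days 1, 2 and 3 and 189, 189.7 and 212 CPM at day 5, so its groups were separate, yet its log2 change of 0.64 ± 0.18 had an adjusted p of 0.0909. FDFT1 (log2 0.48), HMGCS1 (0.44) and FDPS (0.46) were likewise not called. The number called higher changed with the libraries and the model used, and the cause was not tested. It was 19 without the day 1 or the day 3 library, 6 without day 2, 5 without day 5 replicate 1 or 2 and 7 without replicate 3. With a spread taken from the repeats of days 0 and 5, or with day as a number, it was 21.

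SREBP proteins bind sterol regulatory elements near the start of such genes, and the promoters of the most confidently changed members are shown with the only one that held the classical element. Promoters are those of RefSeq on GRCh38.p14, from 250 bases before to 50 after the start, and 18 of the 24 tested members had one. The sterol regulatory element of 10 bases was searched on both strands, and the match is in capitals. It occurred in 1 of these 18 promoters (5.56%) and in 13 of all 27305 promoters (0.0476%). CYP51A1 (chr7:92134428-92134727, minus strand) and SC5D (chr11:121292521-121292820, plus strand) had the smallest p of the list. SREBF2 (chr22:41832855-41833154, plus strand) held the match, at position -134 from its start, and was chosen after this was seen.
CYP51A1: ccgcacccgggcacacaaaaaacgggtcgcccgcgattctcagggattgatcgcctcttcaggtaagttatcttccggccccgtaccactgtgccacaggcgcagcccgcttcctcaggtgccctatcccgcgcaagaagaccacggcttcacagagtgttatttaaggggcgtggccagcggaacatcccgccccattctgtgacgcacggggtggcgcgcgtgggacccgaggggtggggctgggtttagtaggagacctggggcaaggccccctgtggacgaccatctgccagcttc
SC5D: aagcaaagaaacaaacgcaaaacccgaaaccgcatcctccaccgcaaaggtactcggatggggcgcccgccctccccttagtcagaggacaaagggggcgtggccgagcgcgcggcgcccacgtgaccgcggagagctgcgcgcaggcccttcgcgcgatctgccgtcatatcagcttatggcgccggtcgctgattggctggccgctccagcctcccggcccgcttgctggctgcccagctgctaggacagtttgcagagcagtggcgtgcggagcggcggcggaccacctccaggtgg
SREBF2: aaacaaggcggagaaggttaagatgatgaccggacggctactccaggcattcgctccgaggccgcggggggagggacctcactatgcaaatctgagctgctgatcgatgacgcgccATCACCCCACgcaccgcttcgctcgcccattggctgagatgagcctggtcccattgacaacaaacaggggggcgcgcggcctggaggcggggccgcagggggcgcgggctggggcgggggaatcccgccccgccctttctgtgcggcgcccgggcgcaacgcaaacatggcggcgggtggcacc
SREBF2 lay at a log2 change of 0.18, below that of CYP51A1 and SC5D, whose promoters held no match to these letters in this window.

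Of 20 fatty acid synthesis genes tested, 11 were called higher and 1 lower (60% called, against 15.5% of all genes), with a median log2 change of 0.228. ACSS2, which makes acetyl-CoA from acetate, read 39.6, 45.6 and 51.1 CPM and then 67.8, 69.0 and 70.7 CPM (log2 0.61 ± 0.08, adjusted p = 0.000237). LPIN1, a phosphatidate phosphatase, read 46.5, 51.6 and 53.5 CPM and then 63.8, 66.4 and 69.7 CPM (log2 0.40 ± 0.06, adjusted p = 0.000233). Day 5 was above each early library for both. The desaturases FADS2 (log2 0.45), FADS1 (0.28) and SCD (0.24), the elongase ELOVL6 (0.39), ACLY (0.26) and SREBF1 (0.15) were also called, while FASN at a log2 change of 0.22 was not. ACSL3, a long-chain acyl-CoA ligase, fell by 0.39 on the log2 scale (adjusted p = 0.00946). Without day 5 replicates 1, 2 and 3 the list had 6, 5 and 6 members called higher. Of 10 LXR targets, which include exporters of cholesterol, 0 were called higher and 3 lower (30% called), with a median of 0.0263. They were NR1H3, the LXR-alpha receptor itself (log2 -0.47, adjusted p = 0.00705), the exporter ABCA1 (log2 -0.18, adjusted p = 0.00871) and APOC1 (log2 -0.43, adjusted p = 0.0342). That count was 0 without day 2 and 1 without day 5 replicate 3. ABCA1 was not called in either case.

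Of 18 genes of MHC class I presentation tested, 10 were called lower and 1 higher (61.1% called, against 15.5% of all genes). The median log2 change was -0.223. HLA-B (ENSG00000234745, chr6:31353872-31367067), a heavy chain, lay at 81.2, 85.4 and 79.8 CPM early and at 53.5, 48.2 and 52.2 CPM at day 5 (log2 -0.68 ± 0.05, adjusted p = 4.25e-07). HLA-C lay at 79.4, 69.9 and 65.4 CPM and then at 51.2, 48.4 and 48.6 CPM (log2 -0.54 ± 0.07, adjusted p = 0.000111). Each day 5 library was below each early library for both genes, whose day 0 libraries had been higher again, at 146 to 153 CPM for HLA-B. The immunoproteasome subunits PSMB9 (log2 -0.78) and PSMB8 (-0.41), the peptide transporter TAP1 (-0.28) and the light chain B2M (-0.18) fell as well, and the editor TAPBP rose (log2 0.14, adjusted p = 0.0345). HLA heavy chains are near-identical in sequence, so the division of reads among them by the authors' pseudoalignment is uncertain. The list had 5 members called lower without day 5 replicate 3, 6 without day 2 and 6 without day 5 replicate 2.

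Interferon response genes did not move in 1 direction. Of 26 tested, 4 were called higher and 3 lower (26.9% called, against 15.5% of all genes), with a median of -0.237. IFIT2 lay at 34.5, 29.6 and 31.9 CPM and then at 72.6, 72.6 and 72.3 CPM (log2 1.18 ± 0.06, adjusted p = 3.73e-09). IFIT1, a sensor of foreign RNA, lay at 12.2, 8.53 and 8.37 CPM and then at 20.2, 20.8 and 22.1 CPM (log2 1.10 ± 0.13, adjusted p = 0.000105). The other called members were IFITM1 (log2 2.26) and IFITM2 (1.44), 2 near-identical neighbours at low levels, and in the other direction STAT2 (-0.37), OAS3 (-0.45) and SAMD9L (-1.15). IFIT2 overlaps ENSG00000232110 on its own strand and LIPA on the other. LIPA, the lysosomal acid lipase, rose too, from 214, 194 and 226 CPM to 367, 363 and 374 CPM (log2 0.80 ± 0.05, adjusted p = 8.93e-08). The strand setting of the pseudoalignment is not given in the sources used here, so the part of the IFIT2 and LIPA values that comes from shared sequence was not tested. The 3 interferon decreases became 5 without day 3 and 1 without day 5 replicate 1.

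Of 40 DNA replication genes tested, 10 were called lower and 0 higher and 30 were not called, with a median log2 change of -0.106. The share called was 25%, against 15.5% of all genes. GINS4, a subunit of the replicative helicase, lay at 97.4, 83.5 and 81.5 CPM and then at 65.3, 63.4 and 62.8 CPM (log2 -0.46 ± 0.06, adjusted p = 0.000262). LIG1, the replicative ligase, lay at 109.8, 104 and 108 CPM and then at 87.8, 89.9 and 85.9 CPM (log2 -0.29 ± 0.04, adjusted p = 0.00026). The groups of both genes were separate. The list's other decreases included CCNE2 (log2 -0.52), RRM2 (-0.28), CLSPN (-0.29), MCM10 (-0.21), GINS1 (-0.17), GINS2 (-0.19) and DTL (-0.13), and MCM2 was at -0.11 and CDC6 at -0.14 without a call. Mitosis genes were nearly level, with 1 of 40 called lower, the ubiquitin-conjugating enzyme UBE2C (log2 -0.18 ± 0.05, adjusted p = 0.0103), 0 called higher and a median of -0.00979. Of 25 cell cycle inhibitors and quiescence genes, 5 were called higher and 2 lower, with a median of 0.0643. TOB1, an antiproliferative protein, rose from 26.1, 24.3 and 25.2 CPM to 33.5, 33.3 and 35.3 CPM (log2 0.43 ± 0.06, adjusted p = 0.000262), and the pocket protein RBL1 fell from 55.6, 52.0 and 52.8 CPM to 45.7, 45.03 and 44.6 CPM (log2 -0.25 ± 0.05, adjusted p = 0.00455). The 5 increases of that list became 3 without day 2 or day 5 replicate 1 or 3 and 2 without replicate 2, and UBE2C lost its call without day 2 or day 5 replicate 1 or 3. Mitosis had 3 called lower without day 1 and 2 called higher without day 3.

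**Figure D3:**
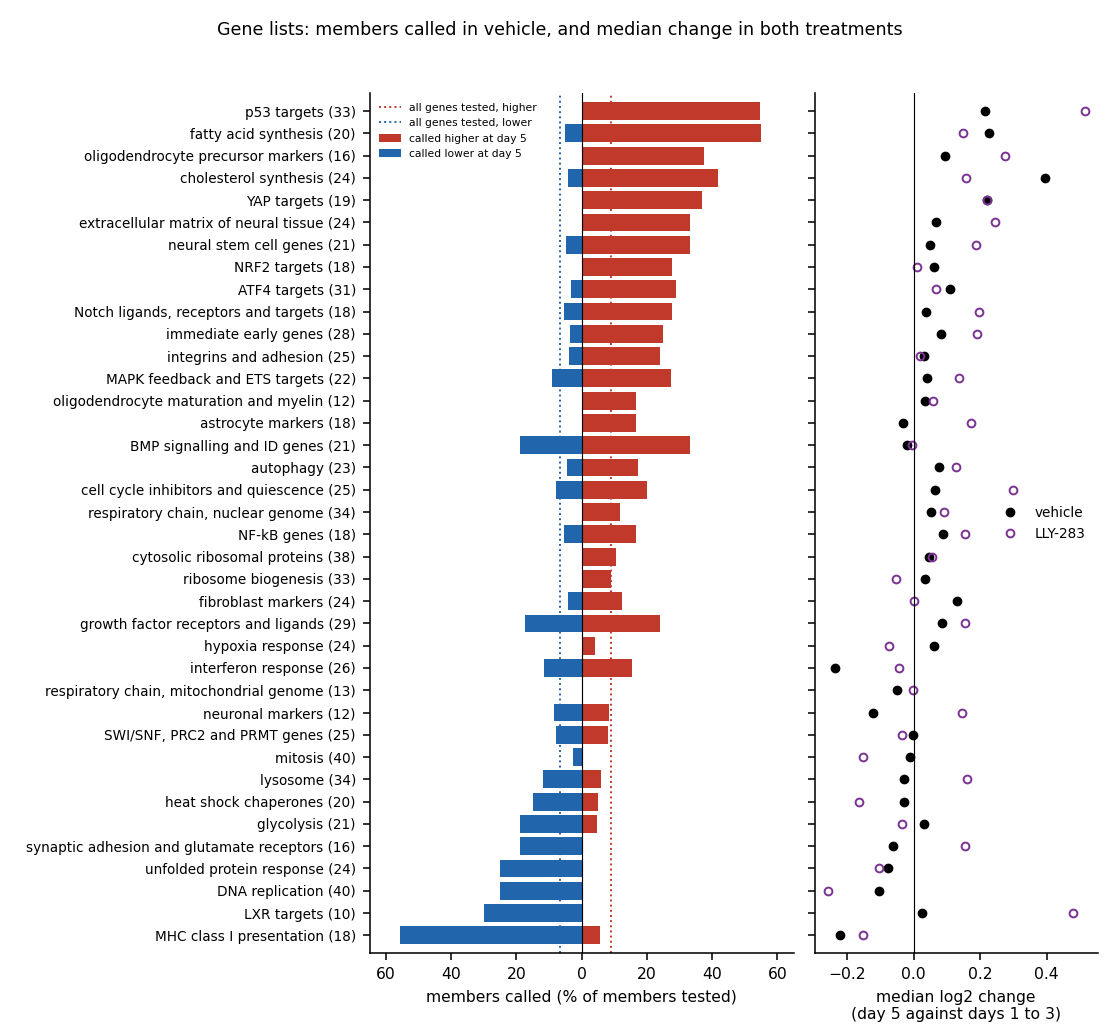
Left, the share of tested members called higher (red) or lower (blue) at day 5 in vehicle for each list with at least 10 tested members, whose number is in brackets, with dotted lines at 8.95% and 6.56% for all genes. Right, the median log2 change of the same members in vehicle (filled) and LLY-283 (open) libraries, where p53 targets are at 0.216 and 0.515 and cholesterol synthesis at 0.395 and 0.157.

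Several markers of the oligodendrocyte precursor state rose. Of 16 tested, 6 were called higher and 0 lower (37.5% called, against 15.5% of all genes), with a median log2 change of 0.0953. By library totals, the summed markers went from between 5960 and 6140 CPM early to between 6810 and 7020 CPM at day 5. Most of that rise lay in PTPRZ1, at 2570 to 2770 CPM and then 3160 to 3340 CPM, and BCAN, at 253 to 361 CPM and then 549 to 583 CPM. PDGFRA, the receptor for PDGF-AA, lay at 119, 110.2 and 118 CPM and then at 158, 155 and 160.2 CPM (log2 0.45 ± 0.04, adjusted p = 2.82e-06). PTPRZ1, a receptor phosphatase of glial precursors, lay at 2593, 2729 and 2767 CPM and then at 3283, 3221 and 3392 CPM (log2 0.29 ± 0.04, adjusted p = 5.27e-05). Both were higher in each day 5 library than in any early one, as were OLIG1 (log2 0.31), SOX6 (0.17), NEU4 (1.15) and the proteoglycan BCAN (0.96). Groups did not overlap for 11 of the 16 members, some higher and some lower at day 5, against 33.8% of all genes tested. A log2 change above 0 was seen in 10 of the 16. Those without a call included VCAN, at 399, 330 and 321 CPM and then at 304, 299 and 281 CPM by library totals. MEGF11 was not called either, at 8.06, 8.8 and 9.59 CPM and then at 7.13, 7.71 and 6.79 CPM on that scale. Both VCAN and MEGF11 were lower in each day 5 library than in any early one. OLIG2, the defining factor of the lineage, was at 369, 325 and 334 CPM and then at 360.0, 356 and 366 CPM (log2 0.07, adjusted p = 0.311). The 6 increases became 4 without day 2 or any day 5 library. With day as a number, no filter or a spread from the repeats of days 0 and 5, 2 members were called lower.

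Markers of other lineages were examined in the same way. Of 12 genes of oligodendrocyte maturation and myelin, 2 were called higher and 0 lower, with a median of 0.034. They were the calcium channel ITPR2 (log2 0.38, adjusted p = 3.84e-05) and the myelin regulator MYRF (log2 0.29, adjusted p = 0.0105). MYRF, and with it 1 of these 2 calls, was lost without day 2 or day 5 replicate 1 or 2. Among 18 astrocyte markers, 3 were called higher and 0 lower, with a median of -0.0309, namely KCNJ10, ID3 (log2 0.40, adjusted p = 0.0061) and FGFR3 (0.48). That share of 16.7%, the same in the maturation and neuronal lists, was near the 15.5% of all genes. Of the 18 astrocyte markers, 7 had a log2 change above 0. By library totals, S100B went from 361, 298 and 274 CPM to 254, 252 and 247 CPM without a call. CLU, also not called, went from 208, 191 and 132 CPM to 108, 108 and 107 CPM. Neuronal markers had 1 of 12 called in each direction and a median of -0.124, with SOX11 at a log2 change of 0.27 (adjusted p = 0.000306) and DCX at -1.48 (adjusted p = 0.00779), the latter from 2.04, 1.29 and 1.28 CPM to 0.492, 0.654 and 0.514 CPM. In 21 neural stem cell genes, 7 were called higher and 1 lower, with a median of 0.0487. FABP7, a fatty acid binding protein of radial glia, lay at 102, 112 and 108 CPM and then at 143, 137 and 139.6 CPM (log2 0.38 ± 0.05, adjusted p = 3.44e-05). SOX2 lay at 349.9, 349 and 352 CPM and then at 416, 409 and 441 CPM (log2 0.27 ± 0.04, adjusted p = 0.000171), and the intermediate filament NES was the member that fell (log2 -0.16, adjusted p = 0.00251). Of 16 genes of synaptic adhesion and glutamate receptors, 0 were called higher and 3 lower, with a median of -0.0617, namely GRIK1, the neuroligin NLGN1 (log2 -0.30, adjusted p = 0.00335) and GRM3 (-0.54). The share called there, 18.8%, was near the 15.5% of all genes. The single tested microglia marker and the 2 tested endothelial markers gave no call, with medians of -0.276 and 0.069. The astrocyte decreases numbered 1 without day 1 and 3 without day 3, the neuronal increases 3 without day 1, and the neuronal decreases 2 without day 1 and 3 without day 3.

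Receptors and ligands of growth factor signalling moved both ways. Of 29 tested, 7 were called higher and 5 lower (41.4% called, against 15.5% of all genes), with a median of 0.086. The receptors PDGFRA, IGF1R (log2 0.48), NGFR (0.54), ERBB2 (0.20), FGFR3 (0.48) and FGFR4 (0.58) rose, and so did the ligand PDGFD (0.91). The ligands PDGFA, PDGFB, EREG (log2 -1.24) and MDK (-0.42) and the receptor FGFR1 (-0.14) fell. PDGFB lay at 99.0, 96.5 and 88.4 CPM and then at 75.0, 68.7 and 65.4 CPM (log2 -0.44 ± 0.06, adjusted p = 0.00011). PDGFA lay at 144, 136 and 126 CPM and then at 106, 105 and 108 CPM (log2 -0.35 ± 0.05, adjusted p = 0.000165). Thus PDGFRA was higher at day 5 while transcripts of 2 of its ligands were lower, in every library of the comparison. The 7 increases became 3 without day 2 or day 5 replicate 1 or 2 and 4 without replicate 3, and the 5 decreases became 3 without day 2 or day 5 replicate 1.

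Genes induced downstream of such receptors were described by 2 lists. Of 28 immediate early genes, 7 were called higher and 1 lower (28.6% called, against 15.5% of all genes, median 0.0817). MYC, a growth-promoting transcription factor, lay at 318, 332 and 359 CPM and then at 463, 439.5 and 458 CPM (log2 0.43 ± 0.04, adjusted p = 6.02e-06), and JUNB, an AP-1 subunit, had a log2 change of 0.30 ± 0.06 (adjusted p = 0.00235). Of 22 MAPK feedback and ETS target genes, 6 were called higher and 2 lower (36.4% called, median 0.0408). Over all genes tested, 8.95% were called higher and 6.56% lower. The receptor kinase EPHA2 lay at 25.1, 29.2 and 31.2 CPM and then at 46.4, 48.5 and 49.8 CPM (log2 0.76 ± 0.07, adjusted p = 3.43e-06), and the feedback inhibitor IL17RD changed by 0.28 ± 0.05 (adjusted p = 0.000484). The 7 immediate early increases became 4 without day 2 or day 5 replicate 1 or 3 and 3 without replicate 2. The 2 MAPK decreases became 4 without day 1, 1 without day 2 or day 5 replicate 1 and 0 without replicate 2 or 3, and under scaling by library totals alone this list had 5 called higher and 4 lower.

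Notch and BMP signalling genes also changed. Of 18 Notch ligands, receptors and targets, 5 were called higher and 1 lower (33.3% called, against 15.5% of all genes, median 0.0377). NOTCH3 lay at 154, 183 and 186 CPM and then at 261, 261 and 262 CPM (log2 0.58 ± 0.06, adjusted p = 0.000262), and NOTCH1 at 317, 331 and 312 CPM and then at 386, 377 and 372 CPM (log2 0.24 ± 0.04, adjusted p = 0.000364). At day 0 NOTCH3 had been at 79.0 to 85.8 CPM. The ligands DLL3 (log2 0.51) and JAG2 (0.49) rose and the modifier LFNG (-0.52) fell. Of 21 BMP signalling and ID genes, 7 were called higher and 4 lower (52.4% called, median -0.0205). BMPR1A, a BMP receptor, lay at 145, 134 and 149 CPM and then at 204, 205 and 205 CPM (log2 0.52 ± 0.04, adjusted p = 7.13e-07), close to the 183 to 186 CPM of day 0, and the ligand BMP7 lay at 83.6, 85.6 and 79.96 CPM and then at 67.0, 61.9 and 62.7 CPM (log2 -0.38 ± 0.05, adjusted p = 8.75e-05). ACVR1, which carries the R206H allele in this line, had a log2 change of -0.06 and no call. The Notch increases became 3 without day 5 replicate 1 or 2, the BMP increases 4 without replicate 1 or 3, and the BMP decreases 1 without day 1 or any day 5 library.

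Matrix and adhesion genes rose in part. Of 24 genes of the extracellular matrix of neural tissue, 8 were called higher and 0 lower (33.3% called, against 15.5% of all genes, median 0.0663). The basement membrane protein NID1 lay at 372, 379 and 384 CPM and then at 458, 451 and 440.5 CPM (log2 0.25 ± 0.04, adjusted p = 0.000183), and the proteoglycan SPOCK1 at 165, 145 and 171 CPM and then at 204, 214 and 213 CPM (log2 0.39 ± 0.05, adjusted p = 0.000247). NID2 (log2 1.41), BCAN (0.96), MATN2 (0.66), COL9A3 (0.25) and the laminins LAMC1 (0.21) and LAMA4 (0.19) were the other increases. Of 25 integrin and adhesion genes, 6 were called higher and 1 lower (median 0.0295). The fibronectin receptor subunit ITGA5 lay at 73.8, 79.5 and 80.8 CPM and then at 109 CPM in all 3 replicates (log2 0.48 ± 0.05, adjusted p = 2.91e-06), and the laminin receptor subunit ITGA7 fell (log2 -0.46 ± 0.06, adjusted p = 0.00019). The 1 decrease of that list became 3 without day 1 and 2 without day 3.

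Of 19 YAP targets, 7 were called higher and 0 lower (36.8% called, against 15.5% of all genes, median 0.22). TGFB2 and the phosphatase PTPN14 (log2 0.27 ± 0.04, adjusted p = 0.000222) had the smallest p. The best known YAP targets CCN1 (log2 0.30) and CCN2 (0.14) were not called. Of 24 fibroblast markers, 3 were called higher and 1 lower (median 0.13), a share of 16.7% beside 15.5% of all genes. S100A4, a calcium-binding protein, lay at 402, 415 and 474 CPM and then at 692, 716 and 689.8 CPM (log2 0.70 ± 0.05, adjusted p = 6.3e-06), and FBLN2, a matrix fibulin, had a log2 change of 1.26 ± 0.25 (adjusted p = 0.00242). FBLN2 lay at 3.82, 3.93 and 4.48 CPM in day 5 replicates 1, 2 and 3, so neither rise rested on replicate 3, the library with FN1 at 60.03 CPM on the same scale. FN1 itself had a log2 change of 2.98 ± 1.67 and no call (adjusted p = 0.335), with 2.40 and 2.68 CPM in the other day 5 libraries. The 1 fibroblast decrease became 6 without day 3 and 0 without day 1, day 2 or day 5 replicate 1 or 2.

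Stress and metabolism lists showed modest changes. Of 31 ATF4 targets, 9 were called higher and 1 lower (32.3% called, against 15.5% of all genes, median 0.108). The amino acid transporter SLC38A2 lay at 202, 195 and 214 CPM and then at 278, 289.5 and 304 CPM (log2 0.51 ± 0.04, adjusted p = 1.02e-06), and SESN2 at 29.5, 25.6 and 28.2 CPM and then at 37.1, 37.8 and 39.9 CPM (log2 0.46 ± 0.07, adjusted p = 0.000227). ATF4 itself was also called (log2 0.22), while ASNS, a classical target, had a log2 change of 0.02. Of 24 genes of the unfolded protein response, 6 were called lower and 0 higher (median -0.0784). The chaperone HSPA5 lay at 883, 832 and 818 CPM and then at 750.3, 721 and 717 CPM (log2 -0.21 ± 0.04, adjusted p = 0.0011), and the secreted factor MANF changed by -0.20 ± 0.04 (adjusted p = 0.00531). Without day 2, or without day 5 replicate 2 or 3, 3 were called lower. Of 20 heat shock chaperones, 3 were called lower and 1 higher (20% called, beside 15.5% of all genes, median -0.0299). HSP90AA1 had a log2 change of -0.16 (adjusted p = 0.00414) and HSPH1 of -0.20 (adjusted p = 0.00429). Without day 5 replicate 2, 1 was called lower and HSP90AA1 was not called.

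Of 18 NRF2 targets, 5 were called higher and 0 lower (27.8% called, against 15.5% of all genes, median 0.0618). They were led by the transketolase TKT (log2 0.28, adjusted p = 0.000277) and the exporter ABCC1 (log2 0.33, adjusted p = 0.000509). Of 21 glycolysis genes, 4 were called lower and 1 higher (23.8% called), although the median was 0.0307. The phosphofructokinase PFKL lay at 78.0, 80.2 and 79.2 CPM and then at 62.9, 67.3 and 65.7 CPM (log2 -0.28 ± 0.05, adjusted p = 0.000614), and the glucose transporter SLC2A1 at 26.0, 24.7 and 23.0 CPM and then at 20.4, 18.8 and 18.4 CPM (log2 -0.36 ± 0.08, adjusted p = 0.0047). Hypoxia response genes had 1 of 24 called higher, the demethylase KDM4B (log2 0.21, adjusted p = 0.00347), and 0 lower (median 0.0602). That share of 4.17% was below the 15.5% of all genes. Of 34 nuclear genes of the respiratory chain, 4 were called higher (11.8%, against 8.95% of all genes) and 0 lower (median 0.0527). Among them were ATP5F1A at 0.16 (adjusted p = 0.00541) and NDUFS1 at 0.16 (adjusted p = 0.00929). Of 13 mitochondrial genes of the chain none was called (median -0.0492). The 5 NRF2 increases became 2 without day 5 replicate 1 and 3 without day 2 or replicate 3, the 4 glycolysis decreases 2 without day 2 or day 5 replicate 1, and the 4 respiratory chain increases 2 without day 2, where NDUFS1 lost its call. The 1 hypoxia increase became 4 without day 1 and 3 without day 3.

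The remaining lists held a few called genes each. Of 34 lysosomal genes, 2 were called higher, among them LIPA, and 4 lower, among them the sphingomyelinase SMPD1 (log2 -0.38, adjusted p = 0.00957), with a median of -0.0282. The share called in this list, 17.6%, was near the 15.5% of all genes. Of 23 autophagy genes, 4 were called higher and 1 lower (median 0.0757), with the transcription factor TFE3 (log2 0.36, adjusted p = 8.82e-05) and GABARAPL2 (log2 0.28, adjusted p = 0.000567) at the smallest p. Of 18 NF-kB genes, 3 were called higher and 1 lower (median 0.0879). The adhesion molecule ICAM1 lay at 16.3, 19.4 and 20.5 CPM and then at 33.7, 34.5 and 33.1 CPM (log2 0.86 ± 0.08, adjusted p = 2.82e-06), and the NF-kB inhibitor TNFAIP3 at 12.6, 15.2 and 14.8 CPM and then at 19.6, 17.7 and 19.96 CPM (log2 0.43 ± 0.09, adjusted p = 0.00531). Of 38 cytosolic ribosomal proteins, 4 (10.5%) were called higher, by at most 0.149, and 0 lower (median 0.0449), with RPL5 (adjusted p = 0.00904) and RPL4 (adjusted p = 0.0227) at the smallest p. Ribosome biogenesis had 3 of 33 (9.09%) called higher, MYC and GNL3 (log2 0.17, adjusted p = 0.0107) among them, and 0 lower (median 0.0338). Both shares were near the 8.95% of all genes called higher. Of 25 SWI/SNF, PRC2 and PRMT genes, 2 were called in each direction (median -0.00204), with JARID2 at 0.17 (adjusted p = 0.0118) and PRMT7 at -0.19 (adjusted p = 0.0222). That share of 16% was near the 15.5% of all genes. PRMT5, the target of LLY-283, lay between 85.9 and 94.1 CPM throughout. Under scaling by library totals alone, the median of LXR targets changed sign to -0.00137, and no other list's did. Several of these counts and calls changed when 1 library was left out. The 2 lysosomal increases became 5 without day 1 and 1 without day 5 replicate 1 or 3. The 4 lysosomal decreases became 2 without day 2 or day 5 replicate 3, 1 without replicate 1 and 0 without replicate 2, which included SMPD1. The 4 ribosomal protein increases became 7 without day 1, 0 without day 2, 2 without day 3 and 1 without any day 5 library, and the 3 of ribosome biogenesis became 1 without day 2 or day 5 replicate 1. The 1 NF-kB decrease became 3 without day 1 and 0 without day 2 or day 5 replicate 1 or 2, and the autophagy decrease 0 without day 2 or any day 5 library. JARID2 lost its call without day 2 or day 5 replicate 1 or 2, and PRMT7 without day 3 or any day 5 library.

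The early libraries were not alike, and day 3 lay nearest to day 5. The chi-square distance per degree of freedom from day 5 was 10.3 to 11.1 for day 1, 7.9 to 8.94 for day 2 and 5.67 to 7.23 for day 3, while the day 5 libraries differed from each other by 1.79 to 2.7. That distance grows with the number of counts, which fell from day 1 to day 3. Between log2 levels, the Euclidean distance from day 5 was 42.1 to 45.7 for day 1 and 40.8 to 45.8 for day 2. For day 3 it was 39.8 to 44.6, and among the day 5 libraries 34.6 to 38.1. By this measure the ranges of the early days overlapped. Levels went in 1 order over days 1, 2, 3 and the mean of day 5 for 30.5% of called genes, 431 rising and 344 falling, and for 14% of all genes tested. Genes were called for a day 5 level apart from days 1 to 3, so the selection itself favours such an order among them. Days 1, 2 and 3 have 1 library each, so these orders have no replicate check. Cholesterol synthesis showed such an order as a list. Its mean log2 level relative to the early group was -0.1641, 0.0090 and 0.1551 at days 1, 2 and 3 and 0.3457 to 0.3589 at day 5. The p53 targets did not, at 0.0554, -0.0533 and -0.0021 before 0.2093 to 0.2956, and at day 0 they had been at 0.2775 to 0.2813. MHC class I genes went from 0.2876 to 0.3639 at day 0 to 0.0629, 0.0227 and -0.0856 at days 1, 2 and 3 and -0.2618 to -0.2178 at day 5.

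**Figure D4:**
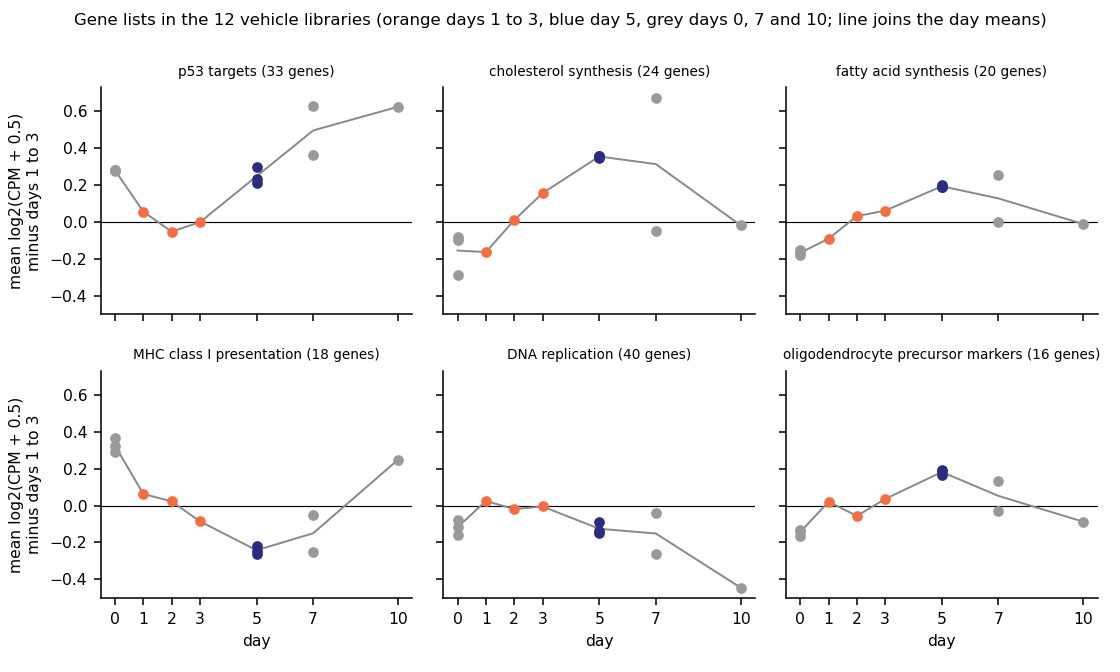
Mean log2(CPM + 0.5) over the members of 6 lists in each of the 12 vehicle libraries, relative to days 1 to 3, against day, with a line through the day means. Day 5 (blue) lies above days 1 to 3 (orange) for p53 targets, cholesterol synthesis, fatty acid synthesis and precursor markers and below them for MHC class I and DNA replication, and the libraries of days 7 and 10 (grey) continue the direction of p53 targets and reverse that of MHC class I at day 10. The labels of day 7 carry a doubt, and its points and mean are drawn as labelled. Its libraries lie far apart for cholesterol synthesis.

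After day 5 the lists took different courses in single libraries. At day 7 the libraries labelled vehicle replicates 1 and 2 stood at 0.6724 and -0.0475 for cholesterol synthesis and at 0.3637 and 0.6262 for p53 targets. The labels of day 7 carry a doubt, and its libraries are given as labelled. ABCG1 lay at 71.86 and 132.9 CPM in vehicle replicates 1 and 2 of that day and at 139.6 and 72.99 CPM in LLY-283 replicates 1 and 2, and TLL1 lay at 5.343 and 10.6 CPM and at 14.02 and 4.415 CPM. In both genes, each replicate 2 was near replicate 1 of the other treatment. At day 10 the 1 vehicle library stood at 0.6233 for p53 targets, 0.2487 for MHC class I and -0.4455 for DNA replication.

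The same interval was then examined in cells treated with LLY-283, to see which changes of the vehicle cells also occurred there. Of 17290 genes tested, 1475 were higher at day 5 (8.53%) and 1030 lower (5.96%), and this comparison holds the effects of time and of drug together. Of 2534 vehicle calls that were tested, 2278 (89.9%) had the same sign in LLY-283, against 70.2% of all 16206 genes tested in both. Calls shared by both numbered 1097, which is 43.2% of the vehicle calls and 43.8% of the LLY-283 calls, and 1084 of them went in the same direction. The Pearson correlation of the log2 changes across genes was 0.762 over the vehicle calls and 0.466 over all tested genes, as a description, since genes are not independent replicates. The comparisons share no library, but early and day 5 libraries are split by column number in the same way in both. Any batch this marks is therefore common to both, and its part in the shared signs was not tested.

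Of the genes with the largest changes in vehicle, GRIK1 and BTBD17 were not called under LLY-283 (adjusted p = 0.249 and 0.0793). By the test of the difference between treatments, GRIK1 differed (adjusted p = 0.0251). BTBD17, at a log2 change of -0.75 in LLY-283 and -1.01 in vehicle, did not (adjusted p = 0.859). RANBP3L had a log2 change of 2.66 ± 0.28 in LLY-283 (adjusted p = 0.0019), KCNJ10 of 2.56 ± 0.44 (adjusted p = 0.0302) and MDGA1 of -1.47 ± 0.16 (adjusted p = 0.00014). None of these 3 differed between treatments by the test of the difference, with adjusted p of 0.543, 0.627 and 0.943. In that test, 65 of 17952 genes (0.362%) were called, with the LLY-283 change minus the vehicle change positive for 51 and negative for 14. Its smallest p belonged to SERPINE2, an inhibitor of serine proteases, which rose from 687, 606 and 643 CPM to 789.8, 808 and 836 CPM in vehicle (log2 0.33 ± 0.04) and changed by 1.06 ± 0.06 in LLY-283, a difference of 0.72 ± 0.08 (adjusted p = 0.000618).

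**Figure D5:**
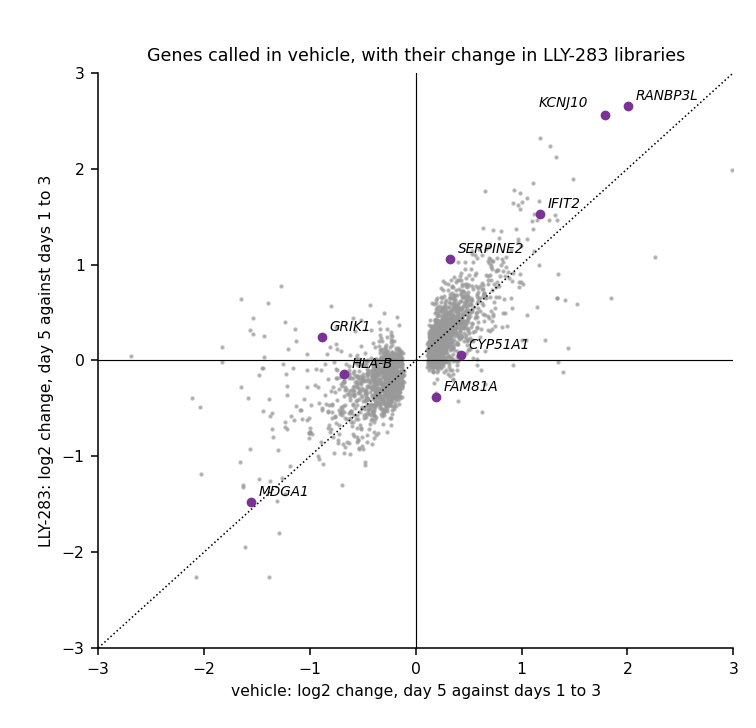
Log2 change from days 1 to 3 to day 5 in vehicle (x axis) and in LLY-283 (y axis) for 2533 genes called in vehicle, with the dotted line of equal change. RANBP3L, KCNJ10, IFIT2 and MDGA1 lie near or beyond the line, GRIK1, HLA-B and CYP51A1 lie near 0 on the LLY-283 axis, and 1 gene is outside the axes.

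Among the lists, p53 targets had 24 of 33 called higher in LLY-283 and 0 lower, with a median of 0.515, and for 2 of them, ZMAT3 (adjusted p = 0.0116) and BAX (adjusted p = 0.0182), the increase was larger than in vehicle. Cholesterol synthesis had 7 of 24 called higher and a median of 0.157, and CYP51A1 was the member whose change differed, at 0.06 ± 0.05 in LLY-283 (difference -0.38 ± 0.07, adjusted p = 0.0321). Its LLY-283 levels were 224, 221 and 214 CPM early and 235, 223 and 219.7 CPM at day 5, with overlapping groups. HLA-B also stayed closer to its early level in LLY-283, at 75.9, 80.4 and 88.3 CPM and then at 76.6, 70.2 and 73.4 CPM (log2 -0.14 ± 0.07, difference 0.53 ± 0.09, adjusted p = 0.0181). DNA replication had 18 of 40 called lower and mitosis 17 of 40 in LLY-283, against 10 and 1 in vehicle. Over all genes tested, 8.53% were called higher and 5.96% lower in LLY-283, and 6.56% lower in vehicle. In the test of the difference, 1 member of each of these 2 lists was called, POLA1 and TOP2A, named after their values were seen.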

How the data were processed

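RNA of HSJD-DIPG-007 cells was sequenced as 41-base paired reads from a directional kit. The authors pseudoaligned reads to hg38 with kallisto and deposited estimated counts per gene as whole numbers, and the kallisto version and strand setting are not given in the sources used here. Overlapping genes and near-identical paralogs can therefore share reads. All 24 libraries have columns, and 0 columns belong to other samples. The 6 vehicle libraries held 13835205 to 23190369 counts, which limits the precision of low genes.

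Genes were filtered with filterByExpr, scaled by TMM and tested with the robust quasi-likelihood test of edgeR 4.0.16 in R 4.3.3, day 5 against days 1 to 3, with Benjamini-Hochberg adjustment over all genes tested. Genes at an adjusted p under 0.05 are called. The SE was the absolute log2 change divided by the square root of F. Adjusted p-values in the text are from this test. The same model was fitted to the LLY-283 libraries, and the difference of the changes was tested as an interaction over 12 libraries. CPM levels were scaled by TMM over the 24 libraries, and marker checks by library totals alone. With 3 samples against 3, an exact permutation test of 1 gene cannot go below p = 0.1.

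Named genes were the 10 largest called changes in each direction among protein-coding genes with at least 5 CPM in the higher stage and groups that did not overlap, the 2 called members of smallest p in each of 40 gene lists, and the 5 genes of smallest p for the difference between treatments. Members and lists were chosen with earlier results of these data known. Alternatives were DESeq2 1.42.0, other scalings, filters and thresholds, day as a number, a spread from repeats and leaving out each library. On simulated data for the vehicle comparison (15988 genes, each gene with its own spread), edgeR called 87% of the genes given a log2 change of 1 and 58% of those given 0.5. Of the 170 calls, 14.7% were false. With a spread that followed the level of a gene, 1.3% of 154 calls were false. Only 100 genes were given each size of change, and the early days were drawn from a common mean. These false shares therefore do not carry over to the calls reported here. Some items are not reported here.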

Additional observations from a re-analysis of the deposited data

Results flagged for a closer look

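By edgeR's interaction test, the change from days 1 to 3 to day 5 differed between treatments for 65 genes. Of these, 8 were among the genes named by rule. Each of the 8 is given as the LLY-283 change minus the vehicle change on the log2 scale. GRIK1 differed by 1.1204 (adjusted p = 0.0251), as it fell in vehicle and was not called in LLY-283. HLA-B differed by 0.5305 (adjusted p = 0.0181) and CYP51A1 by -0.3808 (adjusted p = 0.0321), and neither was called in LLY-283. SERPINE2 was called in both and differed by 0.7164 (adjusted p = 0.000618). SAT1, which encodes the spermidine acetyltransferase, differed by 0.5146 (adjusted p = 0.00417), and TLL1, a metalloprotease, by 1.4476 (adjusted p = 0.00801). ABCG1, a sterol exporter, differed by 0.6399 (adjusted p = 0.0116), and FAM81A by -0.582 (adjusted p = 0.0116). The last 5 were chosen by the smallest p of this test.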

How the results depend on the processing

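No paired analysis was possible because days 1, 2 and 3 hold 1 library each, all numbered 1. The 2539 vehicle calls became 1160 at an adjusted p of 0.01 and 1358 for day 5 against day 3 alone with the spread taken from the repeats of days 0 and 5 (3723 with that spread and days 1 to 3), and ranged from 1386 to 2976 when each library was left out. The share of calls that were higher was 64.04% with DESeq2, 44.31% with library totals alone, 55.49% with at least 10 counts in every library, 65.78% at 0.01 and 55.62% with day as a number, and ranged from 55.73 to 64.92% when each library was left out. The 227 list members called became 133 at 0.01 and ranged from 147 to 274. The LLY-283 calls became 902 at 0.01 and ranged from 801 to 4513, the latter without LLY-283 day 3. The 65 genes that differed between treatments became 152 with DESeq2, 351 without a filter and 3 at 0.01, and ranged from 3, without vehicle day 5 replicate 1, to 841, without LLY-283 day 3. The TLL1 log2 change at day 5 in vehicle, which was not called, turned to -0.0105 with library totals and -0.01716 with day as a number, and ranged from -0.07166 to 0.1453, at -0.05175 without day 2 and -0.03211 without day 3. The causes were not tested. Of the 88 named genes called in vehicle, 66 were called under every alternative run.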
